A study of Homo sapiens with 4 samples.

Results

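The 9 genes examined were AKR1C1, AKR1C2, AKR1C3, AKR1B10, NQO1, GCLM, TXNRD1, HMOX1 and NFE2L2. The set is listed by name and holds the antioxidant transcription factor NRF2 and 8 genes it is known to activate. It was chosen with earlier results of these data known. All 9 were found by symbol among the 67008 genes of the deposited count table. RNA came from SAS cells, derived from a human squamous carcinoma of the tongue and infected with a lentiviral vector for an shRNA against luciferase (Ctrl, shLuc) or against STAU1 (shSTAU1), which encodes a double-stranded RNA-binding protein. Each group held 2 libraries, labelled replicate 1 and replicate 2, and the genotype of all 4 is given as WT. The labels also name the mouse fibroblast line C3H 10T1/2 as the cell line, although they give the organism as human and the cell type as an oral cancer line. One shRNA per group was used, so an effect of losing STAU1 and an effect of that shRNA on other transcripts cannot be told apart. Nothing says that the libraries of a group came from separate cultures, so the p-values measure only the spread between these samples, which may be technical.

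NRF2, the product of NFE2L2, is a transcription factor that KEAP1 holds in the cytoplasm and presents to the CUL3 ubiquitin ligase for degradation. Oxidants and electrophiles modify KEAP1, and the NRF2 that escapes enters the nucleus, pairs with a small MAF protein and binds antioxidant response elements near genes for glutathione and thioredoxin metabolism, NADPH supply, heme breakdown and detoxification. NRF2 is controlled mainly through the stability of its protein, which RNA counts do not measure. The pathway is often active in squamous carcinomas through mutation of NFE2L2 or KEAP1.

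The libraries held 32206655 to 36301574 counts. Levels are CPM, counts divided by a library size that TMM adjusts, and 14303 genes passed a filter on low counts and entered the edgeR quasi-likelihood test. Adjusted p-values are Benjamini-Hochberg values over those 14303 genes, with a threshold of 0.05. STAU1 itself (ENSG00000124214) had 249 and 251 CPM in Ctrl and 41.6 and 41.5 CPM in shSTAU1, or 16.6% of the control level (adjusted p = 0.00103). Of all tested genes 372 passed the threshold (2.60%), of which 161 were higher (1.13%) and 211 lower (1.48%), and scaling by library size alone split the calls into 132 higher and 272 lower. The 7 squamous epithelial markers examined were TP63, KRT5, KRT14, KRT6A, EPCAM, CDH1 and SFN, all above 1 CPM in every library. Their summed level was 5768 to 6154 CPM in Ctrl and 7561 to 9243 CPM in shSTAU1. Of the 7, SFN and KRT5 rose (log2 fold change 1.43 and 0.65, adjusted p = 0.0285 and 0.0408). CDH1 had -0.29 (adjusted p = 0.51) and EPCAM 0.03 (adjusted p = 0.912). The 7 fibroblast markers summed to 17.9 to 22.8 CPM in Ctrl and 10.2 to 11.1 CPM in shSTAU1, and COL3A1, DCN and LUM had at most 3 counts over all libraries together. Within that list COL1A1 fell (log2 fold change -1.35, adjusted p = 0.036), while COL1A2 had 1.01 (adjusted p = 0.185). The 5 immune markers summed to 0.214 to 0.268 CPM in Ctrl and 0.736 to 1.15 CPM in shSTAU1, with CD14 at 5 and 5 counts in Ctrl against 40 and 15 in shSTAU1 (adjusted p = 0.111). The part of these marker differences in the results below was not tested.

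NQO1 rose after STAU1 knockdown, and it was the 1 gene of the 9 that passed the threshold. The other 7 tested genes had positive log2 fold changes that did not pass it, with AKR1B10, GCLM, TXNRD1 and NFE2L2 apart between the groups and AKR1C1, AKR1C3 and HMOX1 overlapping. AKR1C2 was removed by the filter and was not tested. In numbers, 1 of the 8 tested genes was called higher against 1.13% of all tested genes, and 0 were called lower against 1.48%. At an unadjusted p under 0.05 in edgeR's test, 5 of the 8 were higher, against 12.9% of all tested genes, and 0 were lower, against 11.6%. Scaling by library size alone left 2 of the 8 under that p, without GCLM, TXNRD1 and NFE2L2. In that fit 3476 of all 14303 tested genes were under it, in either direction. Both shSTAU1 libraries lay above both Ctrl libraries in 5 of the 8, as they did in 28.5% of all tested genes. The 9 genes were chosen with earlier results of these data known, so these shares describe them and test nothing. Limma-voom called 1 of the 8 (2.54% of all tested genes). DESeq2, which gave AKR1C1 no adjusted p, called 1 of the others (12.0% of all genes it gave an adjusted p). The gene was NQO1 in both. In bulk RNA, a change in the share of cells with a transcript and a change in its level per cell cannot be told apart.

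**Figure D1:**
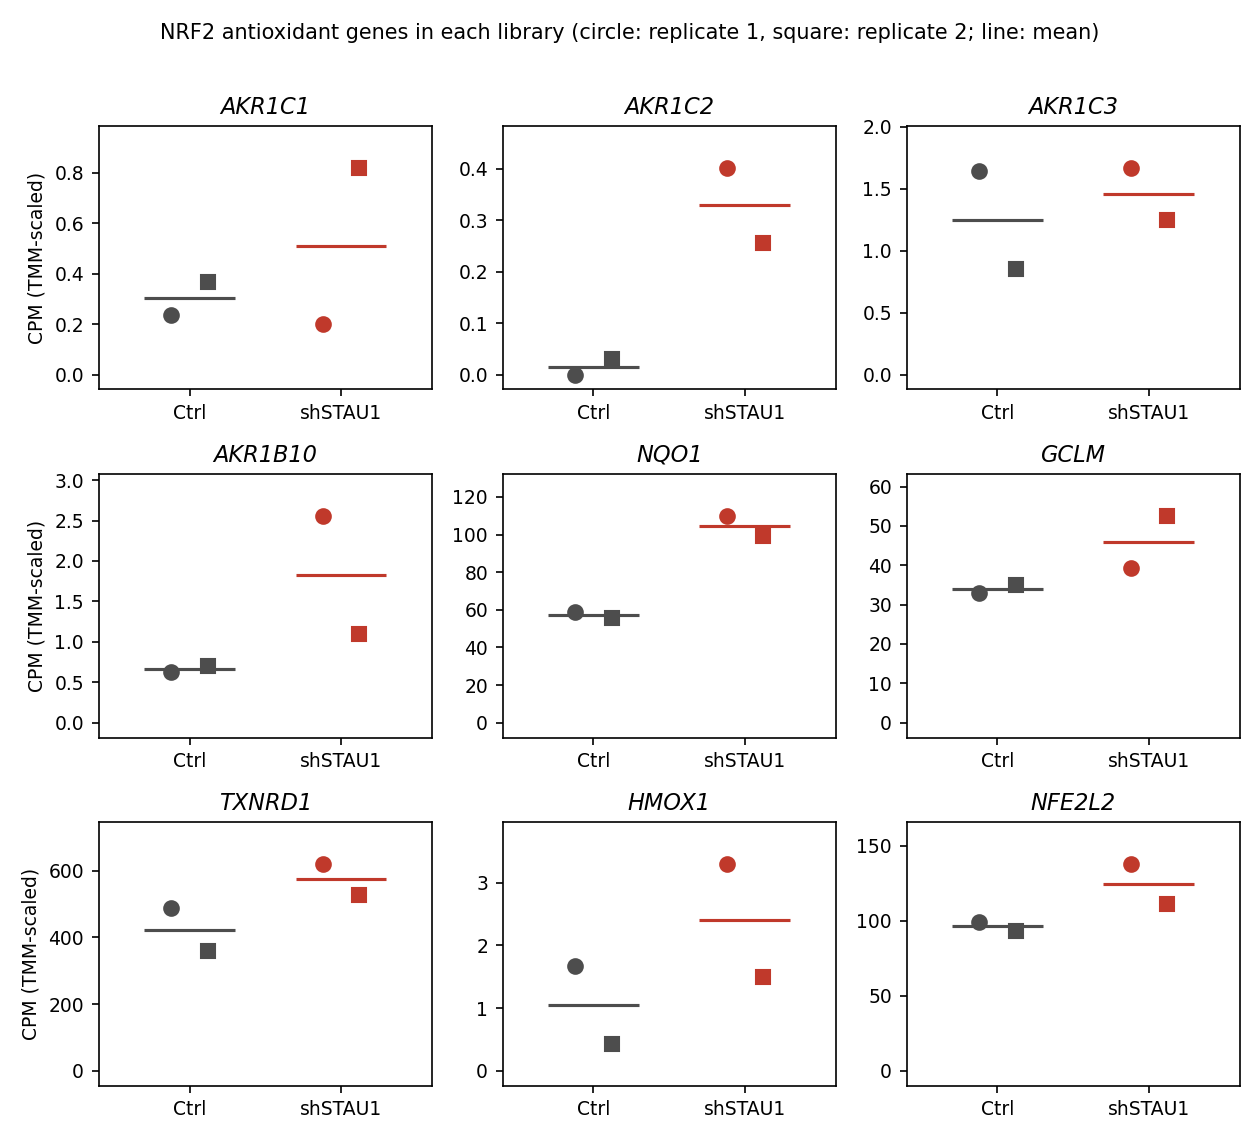
CPM (vertical axes, each reaching to 0, with a separate scale for each gene) of the 9 genes in the 2 Ctrl and 2 shSTAU1 libraries, with a point per library and a line at the group mean. NQO1 sat at 55.4 and 59.0 CPM in Ctrl and at 99.0 and 110.0 CPM in shSTAU1, while the points of AKR1C1, AKR1C3 and HMOX1 overlapped between the groups.

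NQO1 (ENSG00000181019), a quinone reductase that uses NADPH or NADH to reduce quinones without releasing radicals, occupies bases 69706996 to 69726951 of chromosome 16 on the minus strand (GRCh38, GENCODE 29). It had 59.0 and 55.4 CPM in the Ctrl libraries and 110.0 and 99.0 CPM in the shSTAU1 libraries. Every shSTAU1 value was above every Ctrl value, and the higher library was 1.06 times the lower within Ctrl and 1.11 times within shSTAU1. The means were 57.2 ± 2.52 and 105 ± 7.8 CPM (SD, n = 2 libraries per group), a ratio of 1.83. On the log2 scale this was 0.87 (standard error, SE, 0.13, 95% interval 0.56 to 1.18, adjusted p = 0.0357 in edgeR's test). The call depended on the Ctrl libraries and on the filter. Without Ctrl replicate 1 or Ctrl replicate 2 the log2 fold change was 0.91 or 0.83, but the adjusted p was 0.49 or 0.17, and without the filter it was 0.0988. Of the NQO1 exon bases 17.7% lie opposite another gene, AC092115.2. Leaving out Ctrl replicate 1 left 0 genes past the threshold in edgeR's test, STAU1 included, with 1502 at an unadjusted p under 0.05.

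GCLM (ENSG00000023909), the modifier subunit of the enzyme that makes the glutathione precursor gamma-glutamylcysteine, lies on chromosome 1 from 93885205 to 93909456 on the minus strand. It had 32.9 and 34.9 CPM in Ctrl and 39.4 and 52.6 CPM in shSTAU1. The groups did not overlap, but the shSTAU1 libraries were further from each other than the lower of them was from Ctrl. Its log2 fold change was 0.44 (SE 0.18, 95% interval 0.03 to 0.85, adjusted p = 0.181). Without shSTAU1 replicate 1 it was 0.64, and without shSTAU1 replicate 2 it was 0.20.

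TXNRD1 (ENSG00000198431), the cytosolic thioredoxin reductase, lies on chromosome 12 from 104215779 to 104350305 on the plus strand. Its counts were the highest of the 9 genes, from 11733 to 21616 a library. It had 488 and 358 CPM in Ctrl and 621 and 528 CPM in shSTAU1. Both shSTAU1 libraries were higher, by a margin smaller than the gap between the Ctrl libraries. The log2 fold change was 0.44 (SE 0.17, 95% interval 0.04 to 0.85, adjusted p = 0.173). Without Ctrl replicate 1 or 2 it was 0.68 or 0.24, and without shSTAU1 replicate 1 or 2 it was 0.33 or 0.54.

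The promoters of the 9 genes were searched for the core of the antioxidant response element, TGACNNNGC, on both strands, in windows from 250 bases before to 50 bases after each RefSeq start on GRCh38.p14. Windows were at hand for 7 of the genes, not for AKR1B10 and HMOX1. Of their 10 windows 3 held the core, and of all 35116 windows 13.3% did. Of the 37 windows at hand for the wider list of NRF2 targets described further on, 10 did. The matches were in GCLM and TXNRD1 and are shown, 5′ to 3′ on the strand of the gene, because they are the sequences in this set that resemble the element NRF2 binds. Capitals mark the core, which reads GCNNNGTCA where it lies on the other strand.
GCLM, chr1:93909450-93909470, core at -34 from the start: atttctGCTTAGTCAttgtct
TXNRD1, chr12:104215674-104215694, core at -99 from the upstream start: gggctaTGACTTCGCtgttgt
TXNRD1, chr12:104215765-104215785, core at -8 from the upstream start: ccttcgGCTCCGTCAgttccc
TXNRD1, chr12:104286924-104286944, core at -102 from the downstream start: atttctGCTTTGTCAttctga
NQO1, the gene that passed the test, had no match in its window, which says only that these letters are not there. A match is a description of sequence, and no binding was measured.

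NFE2L2 (ENSG00000116044), the gene of NRF2 itself, lies on chromosome 2 from 177227595 to 177392697 on the minus strand. It had 99.2 and 93.3 CPM in Ctrl and 138 and 111 CPM in shSTAU1. Its groups did not overlap, with shSTAU1 replicate 1 the highest library. The mean went from 96.3 ± 4.15 CPM to 124 ± 19.4 CPM (SD, n = 2 each). The log2 fold change of 0.37 (SE 0.15, 95% interval 0.02 to 0.72, adjusted p = 0.183) was the smallest of the 4 abundant genes, though the interval overlaps that of each of the others and the differences between genes were not tested. Its log2 fold change was 0.51 without shSTAU1 replicate 2 and 0.21 without shSTAU1 replicate 1. Of its exon bases in GENCODE 29, 17.6% also belong to another gene on the same strand and 4.08% to one on the other strand, so some reads could be counted elsewhere.

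**Figure D2:**
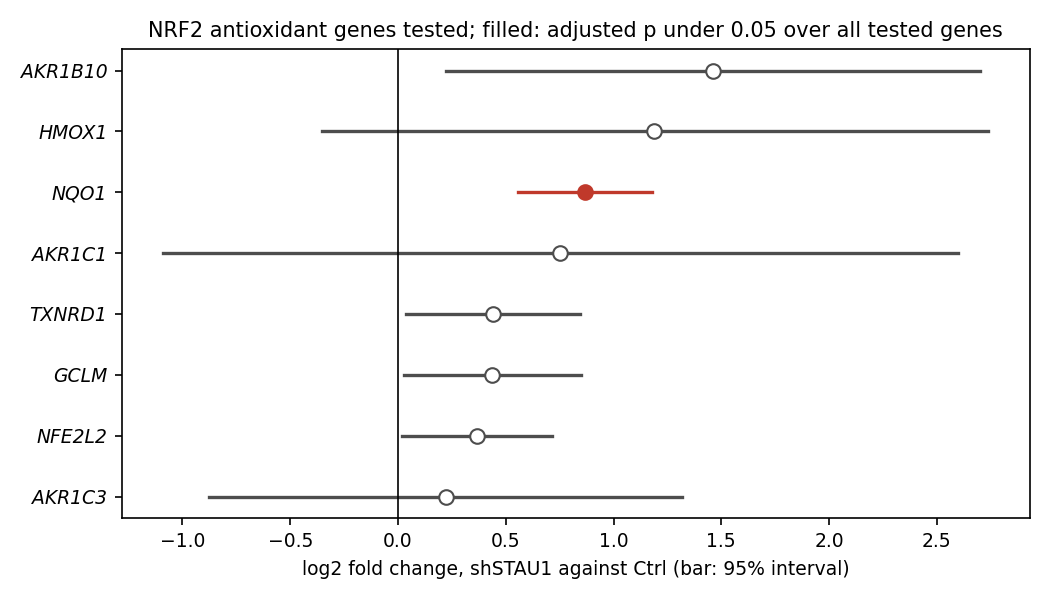
Log2 fold change of shSTAU1 against Ctrl (horizontal axis) for the 8 tested genes, with a bar for the 95% interval of edgeR's fit and a filled red point where the adjusted p was under 0.05. NQO1, at 0.87 with an interval from 0.56 to 1.18, is the filled point, and the intervals of AKR1C1, AKR1C3 and HMOX1 cross 0.

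HMOX1 (ENSG00000100292), the inducible heme oxygenase that opens the heme ring and frees its iron, lies on chromosome 22 from 35380361 to 35394214 on the plus strand. It was low, with 56 and 14 counts in Ctrl and 115 and 53 counts in shSTAU1, or 1.67 and 0.428 CPM against 3.30 and 1.5 CPM. The groups overlapped, since Ctrl replicate 1 was above shSTAU1 replicate 2, and replicate 1 was the higher library in both groups. The log2 fold change was 1.19 (SE 0.66, 95% interval -0.35 to 2.74, adjusted p = 0.305). With 1 library left out it ran from 0.525 to 2.47, and it was 1.64 without shSTAU1 replicate 2.

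AKR1B10 (ENSG00000198074), an aldo-keto reductase that reduces retinals and reactive aldehydes, lies on chromosome 7 from 134527592 to 134541408 on the plus strand. It had 21 and 23 counts in Ctrl and 89 and 39 counts in shSTAU1, or 0.624 and 0.702 CPM against 2.56 and 1.10 CPM. The Ctrl libraries were close to each other, both shSTAU1 libraries were higher, and shSTAU1 replicate 1 was 2.33 times shSTAU1 replicate 2. Its log2 fold change of 1.46 was the highest of the 8 but had a standard error of 0.53 (95% interval 0.22 to 2.70, adjusted p = 0.148). Without shSTAU1 replicate 1 it was 0.74, and without shSTAU1 replicate 2 it was 1.93. Of the words of 50 bases in its longest transcript, 11.6% also occur in its paralog AKR1B15, which had 1 count in all. Adding AKR1B15 to it left the value at 1.47 (adjusted p = 0.147).

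AKR1C1, AKR1C2 and AKR1C3 encode aldo-keto reductases that reduce steroid hormones, prostaglandins and aldehydes, and they lie together within 144.4 kb of chromosome 10, from 4963253 to 5107686. AKR1C1 (ENSG00000187134) had 8 and 12 counts in Ctrl and 7 and 29 counts in shSTAU1. The lowest and the highest of its libraries were both shSTAU1 libraries. Its log2 fold change of 0.75 (SE 0.79, 95% interval -1.09 to 2.60, adjusted p = 0.591) became -0.59 without shSTAU1 replicate 2. AKR1C3 (ENSG00000196139), also known as a prostaglandin F synthase, had 55 and 28 counts in Ctrl and 58 and 44 counts in shSTAU1. Its groups overlapped, with a log2 fold change of 0.22 (SE 0.47, 95% interval -0.88 to 1.32, adjusted p = 0.806) that became -0.16 without Ctrl replicate 2. AKR1C2 (ENSG00000151632) had 0 and 1 counts in Ctrl and 14 and 9 counts in shSTAU1. Scaled for depth this is a ratio of 21.8, with an exact binomial 95% interval of 3.53 to 896 that covers counting error only, and in the fit without a filter its adjusted p was 0.22.

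The AKR1C counts are uncertain in their split between genes. Words of 50 bases that also occur in another gene made up 28.7% of the longest AKR1C1 transcript, 52.2% of that of AKR1C2 and 12.1% of that of AKR1C3, against 0 to 1.19% for NQO1, GCLM, TXNRD1, HMOX1 and NFE2L2. The way such reads were counted is not given in the sources used here. Summed over the 3 genes, the counts were 63 and 41 in Ctrl and 79 and 82 in shSTAU1. The sum was higher in both shSTAU1 libraries, with a log2 fold change of 0.55 (SE 0.38, adjusted p = 0.402). AKR1C4, the liver-type paralog, had 0 counts in every library, which allows up to 3 counts a library.

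**Figure D3:**
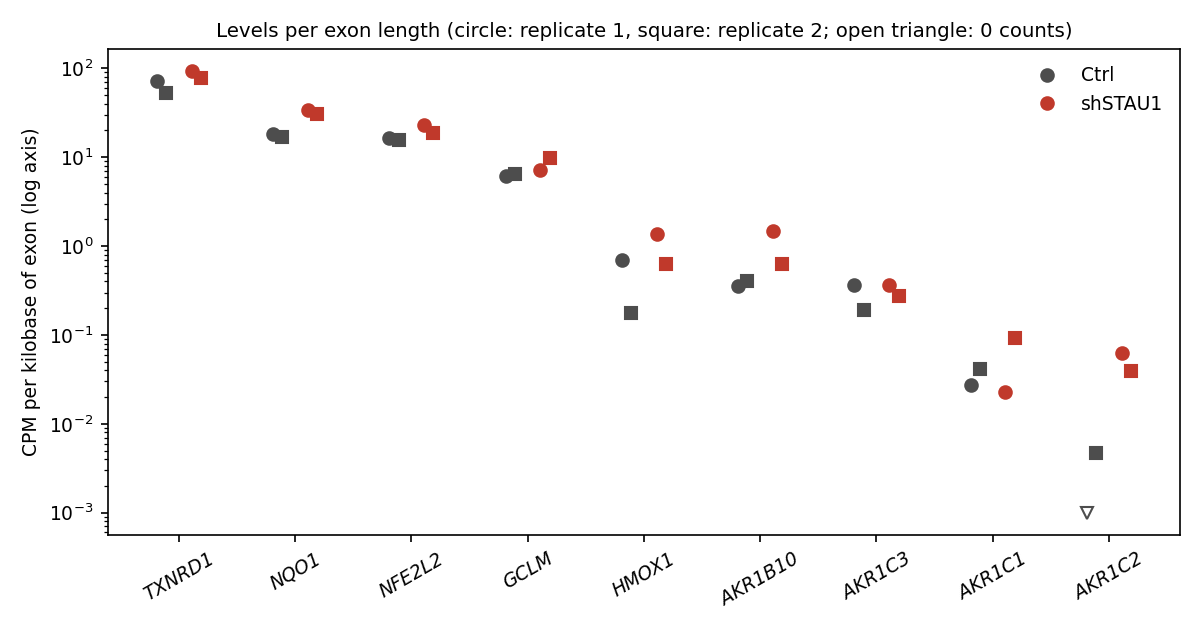
CPM per kilobase of exon (log axis) of the 9 genes in each library, ordered by their Ctrl mean, with grey points for Ctrl, red points for shSTAU1 and an open triangle for 0 counts. TXNRD1, NQO1, NFE2L2 and GCLM lie above 6 in every library, and the other 5 genes reach at most 1.47.

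Between genes, levels were compared as CPM per kilobase of exon, on a kit that captures coding sequence, so that capture as well as length could set the order. In Ctrl the order by mean was TXNRD1 at 63.1, NQO1 at 17.6, NFE2L2 at 16.1, GCLM at 6.26, HMOX1 at 0.435, AKR1B10 at 0.38, AKR1C3 at 0.275, AKR1C1 at 0.0345 and AKR1C2 at 0.00236. The Ctrl libraries of HMOX1 (0.692 and 0.178) enclosed both those of AKR1B10 and overlapped those of AKR1C3, so these 3 neighbours did not differ beyond their spread. One Ctrl library of AKR1C3, at 0.361, also lay between the Ctrl libraries of AKR1B10 at 0.358 and 0.403. In shSTAU1, NQO1 stood at 32.1 and NFE2L2 at 20.8. The order of NQO1 and NFE2L2 in Ctrl turned when the longest transcript replaced the union of exons (19.6 and 33.7), and their ranking is therefore not settled by these lengths. With the longest transcript AKR1C3, at 0.689, also moved above HMOX1 and AKR1B10 in Ctrl (0.574 and 0.417).

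Of 38 other genes regarded as NRF2 targets, 34 were tested, 4 were called higher (FTH1, FTL, TKT and TALDO1) and 0 lower in edgeR's test. At an unadjusted p under 0.05 there were 15 higher and 2 lower, limma-voom also called 4, and DESeq2 called 12, of which 10 were higher. Over all tested genes edgeR called 1.13% higher and 1.48% lower, and 12.9% were higher and 11.6% lower at that unadjusted p. Limma-voom called 2.54%, and DESeq2 called 12.0% of the genes it gave an adjusted p. Among the 34, CBR3, ALDH3A1 and OSGIN1 got no adjusted p from DESeq2. The median log2 fold change was 0.41, against 0.0059 over all tested genes, and 26 of the 34 values were positive, as were 50.4% of all tested genes. Without the filter edgeR called 0 of the 37 then tested, against 11 of all 24804 genes. At an unadjusted p under 0.05 in that fit there were 16 of the 37, against 3582 of the 24804. The calls depended on single libraries, in this list and over all tested genes. Without Ctrl replicate 1 or Ctrl replicate 2 the median log2 fold change was 0.462 or 0.265. Without shSTAU1 replicate 1 or shSTAU1 replicate 2 it was 0.236 or 0.533. The list was chosen with earlier results of these data known, so the shares above describe it and test nothing. Its genes are described by role below, a grouping made after the values were seen.

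Among the genes of heme and iron, both ferritin chains rose. FTH1, the ferritin heavy chain that oxidises stored iron, had 1213 and 1141 CPM in Ctrl and 4004 and 2276 CPM in shSTAU1. Both shSTAU1 libraries were far above Ctrl but differed from each other, and the log2 fold change was 1.42 (SE 0.24, adjusted p = 0.036). With length and GC offsets FTH1 missed the threshold (adjusted p = 0.0524). FTL, the ferritin light chain, had 260.1 and 253 CPM in Ctrl and 589 and 519.8 CPM in shSTAU1, with a log2 fold change of 1.11 (SE 0.13, adjusted p = 0.0168). Of the words of 50 bases in the longest transcript, 40.4% for FTH1 and 18.3% for FTL also occur in other genes, with the pseudogenes FTH1P10 (20.8%) and FTLP3 (18.3%) holding the most, and 62.4% of the FTH1 exon bases lie opposite BEST1. The log2 fold changes of FECH, BLVRA and BLVRB, of heme synthesis and bilirubin formation, were 0.50, 0.06 and -0.45, and none of them passed the threshold.

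In the group named here NADPH supply, TKT and TALDO1 rose. TKT, transketolase, had 393 and 366 CPM in Ctrl and 660.4 and 596 CPM in shSTAU1 (log2 fold change 0.73, standard error 0.13, adjusted p = 0.036). TALDO1, transaldolase, had 117 CPM in both Ctrl libraries and 181 and 178 CPM in shSTAU1 (log2 fold change 0.62, standard error 0.12, adjusted p = 0.0458). TALDO1 missed the threshold with library size scaling (adjusted p = 0.0548) and with length and GC offsets (0.0693). Both enzymes belong to the pentose phosphate pathway. PGD, a dehydrogenase that makes NADPH, had a log2 fold change of 0.57 that missed the threshold in edgeR's test (adjusted p = 0.0631). DESeq2 called it (adjusted p = 0.0102). ME1 and IDH1, which make NADPH outside that pathway, had 0.06 and 0.24 and did not pass edgeR's test (adjusted p = 0.856 and 0.531).

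For glutathione, GCLC, the catalytic partner of GCLM, had 44.6 and 55.9 CPM in Ctrl and 96.1 and 78.0 CPM in shSTAU1, apart between the groups but short of the threshold (log2 fold change 0.79, standard error 0.17, adjusted p = 0.0568). SLC7A11, the cystine importer that feeds the same synthesis, lay the other way. It had 163 and 111 CPM in Ctrl and 82.9 and 61.9 CPM in shSTAU1, with a log2 fold change of -0.92 (SE 0.22, adjusted p = 0.0655). Every SLC7A11 value in shSTAU1 was below every value in Ctrl, and every GCLC value was above. GSTM3, a glutathione transferase, had 1.08 (adjusted p = 0.051), and GSR, glutathione reductase, had 0.41 (adjusted p = 0.202). For thioredoxin, PRDX1 had 0.75 (adjusted p = 0.051) and TXN 0.41 (adjusted p = 0.0995). These adjusted p-values are from edgeR's test. DESeq2, which called 12.0% of all genes it gave an adjusted p, called SLC7A11 lower (adjusted p = 0.000793). It called GCLC, GSTM3 and PRDX1 higher (adjusted p = 0.00168, 0.00167 and 0.000894) and did not call GSR or TXN.

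Of the 3 transporters and 8 detoxification enzymes tested, 0 passed the threshold in edgeR's test or in limma-voom. Those tests called 2.60% and 2.54% of all tested genes. At an unadjusted p under 0.05 in edgeR's test, 3 were higher, against 12.9% of all tested genes, and 1 was lower, against 11.6%. DESeq2 called ABCC2 lower and CYP4F11 higher (adjusted p = 0.00508 and 0.0318), against 12.0% of all genes it gave an adjusted p. ABCC2, an exporter of glutathione conjugates, had 17.1 and 24.4 CPM in Ctrl and 8.10 and 12.1 CPM in shSTAU1 (log2 fold change -1.04, adjusted p = 0.0745). The tested detoxification enzymes had log2 fold changes from -0.06 to 1.23, and 6 of the 8 were apart between the groups with shSTAU1 higher, against 28.5% of all tested genes. SRXN1 had 1 count in all and SQSTM1 7 to 16 counts a library, so neither was tested. In SRXN1 85.0% of the exon bases belong also to another gene on the same strand, and in SQSTM1 22.0% lie opposite other genes. Whether those reads were counted elsewhere was not tested.

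**Figure D4:**
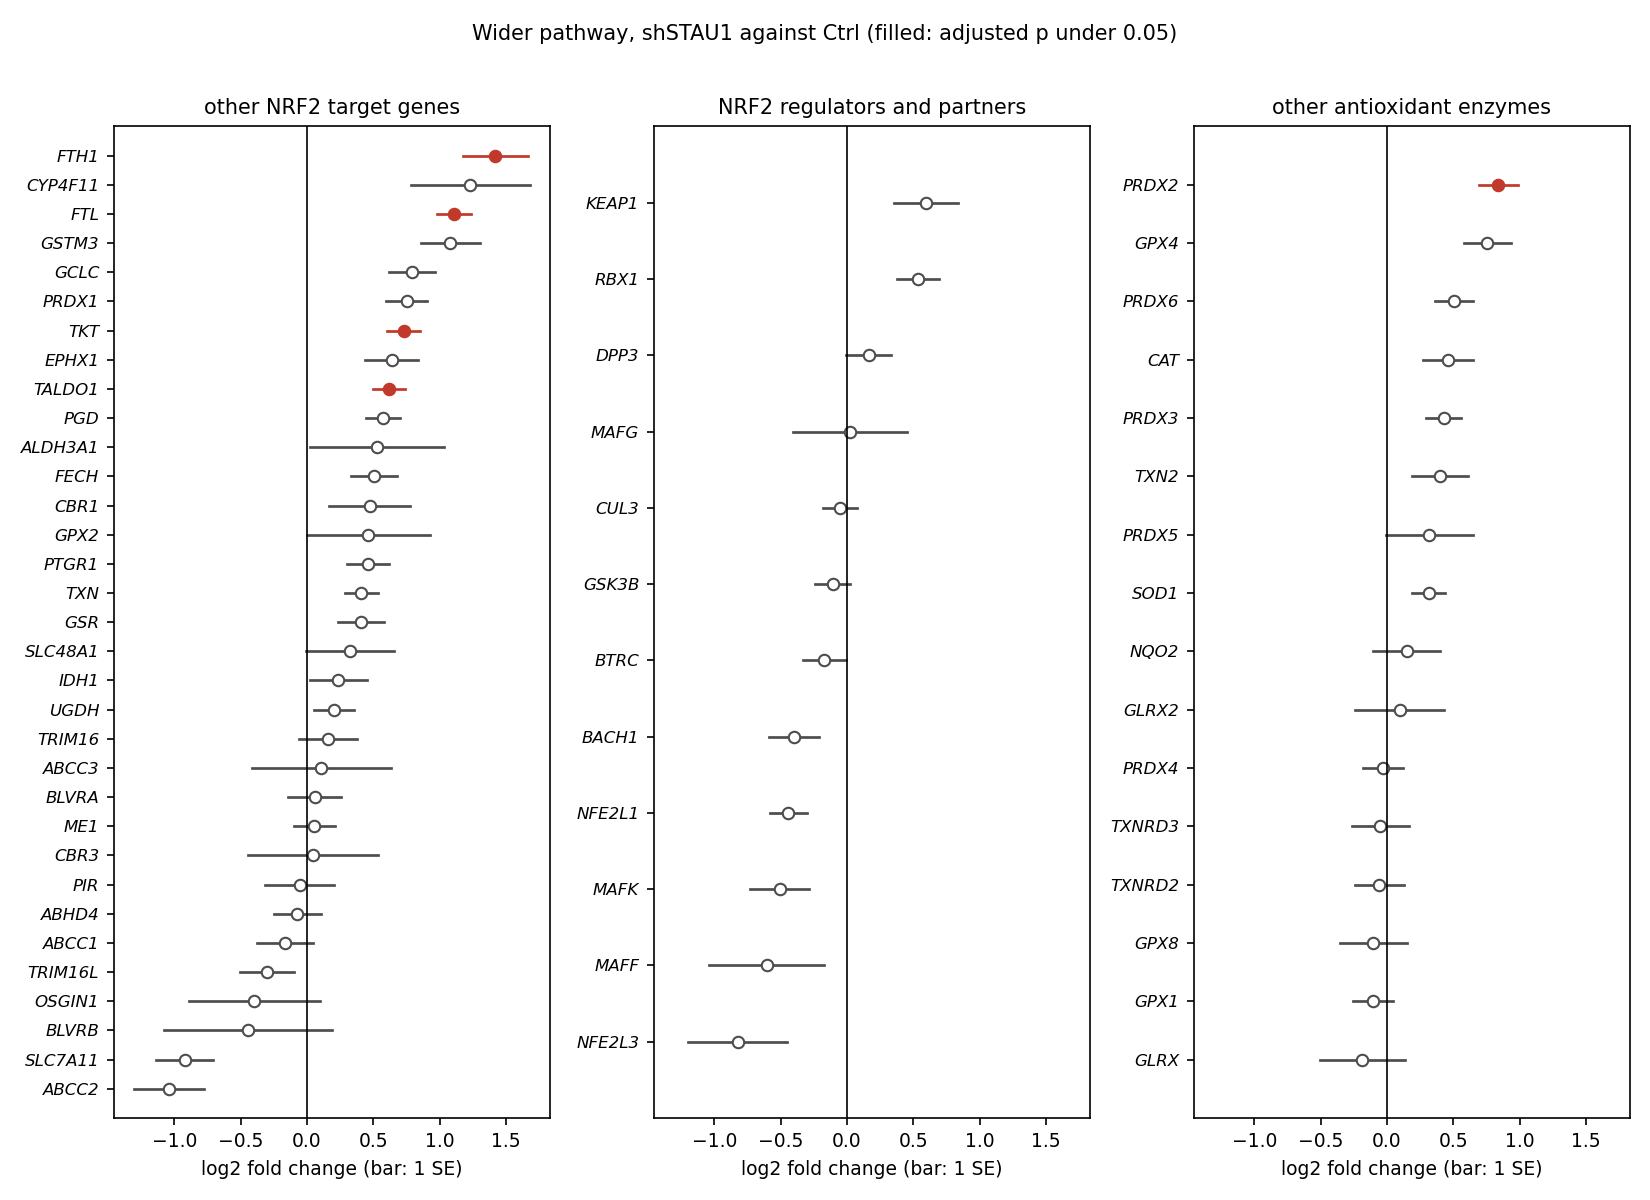
Log2 fold change of shSTAU1 against Ctrl (horizontal axes) with a bar of 1 standard error for 33 of the other NRF2 targets, the 12 regulators and partners and the 16 other antioxidant enzymes that were tested. Filled red points, with an adjusted p under 0.05, are FTH1, FTL, TKT and TALDO1 on the left, PRDX2 on the right and none in the middle, where KEAP1 lies highest at 0.60 and NFE2L3 lowest at -0.82.

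Of 12 regulators and partners of NRF2, all tested, 0 passed the threshold in edgeR's test, against 2.60% of all tested genes. At an unadjusted p under 0.05 in that test, 2 were higher, against 12.9% of all tested genes, and 1 was lower, against 11.6%. DESeq2 called 1 (RBX1), against 12.0% of all genes it gave an adjusted p. Limma-voom called 0, against 2.54% of all tested genes. KEAP1, the NRF2 adaptor, had 13.9 and 20.5 CPM in Ctrl and 22.1 and 29.8 CPM in shSTAU1, apart between the groups (log2 fold change 0.60, standard error 0.24, adjusted p = 0.183). BACH1, a repressor that competes for the same elements, had 47.9 and 41.4 CPM in Ctrl and 38.9 and 28.7 CPM in shSTAU1 (log2 fold change -0.40, standard error 0.19, adjusted p = 0.232). The groups were apart for both genes, with KEAP1 higher and BACH1 lower in shSTAU1. Being apart with shSTAU1 higher held for 28.5% of all tested genes, and the share with shSTAU1 lower was not counted. The related factor NFE2L1 had -0.44 (adjusted p = 0.112). The small MAF partners had log2 fold changes of -0.60 for MAFF, 0.02 for MAFG and -0.51 for MAFK (adjusted p = 0.421, 0.98 and 0.208). The median of the 12 was -0.14 and moved to -0.04 once transcript length and GC content entered as offsets.

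Outside these lists, PRDX2 rose and was the 1 of 16 tested other antioxidant enzymes past the threshold, against 1.13% of all tested genes called higher. It had 28.5 and 27.2 CPM in Ctrl and 47.8 and 51.7 CPM in shSTAU1 (log2 fold change 0.84, adjusted p = 0.036). It was not called without either Ctrl library, without the filter or with offsets for transcript length and GC content. GPX4, which reduces lipid peroxides, had 0.75 (adjusted p = 0.0654 in edgeR's test and 0.00461 in DESeq2), and the median of the 16 was 0.23. Of 4 tested relatives of the AKR genes 2 rose, against 1.13% of all tested genes called higher. They were AKR1B1, the aldose reductase, and AKR7A2, with log2 fold changes of 0.71 and 0.72 (adjusted p = 0.036 for both). Their calls were not followed through the other settings. AKR1B1 had 243 and 229.8 CPM in Ctrl and 403 and 369.8 CPM in shSTAU1, all of them far above AKR1B10, and whether the changes of AKR1B1 and AKR1B10 differ was not tested. AKR7A3, at 3.72 and 1.59 CPM in Ctrl and 0.747 and 0.849 CPM in shSTAU1, had -1.73 (adjusted p = 0.0939).

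Patterns over the 4 libraries were compared by the distance between log2 CPM values centred on their mean. The candidates were the 7727 genes that had a symbol and averaged 10 CPM or more. The genes nearest to NQO1 were SGK1 (distance 0.0856), CETN3 (0.0862) and BCAT2 (0.0866). Those nearest to NFE2L2 were BASP1 (0.0159), SPATA7 (0.0326) and C6orf132 (0.0417). How common such closeness is over 4 libraries was not counted, and it is given as a description.

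**Figure D5:**
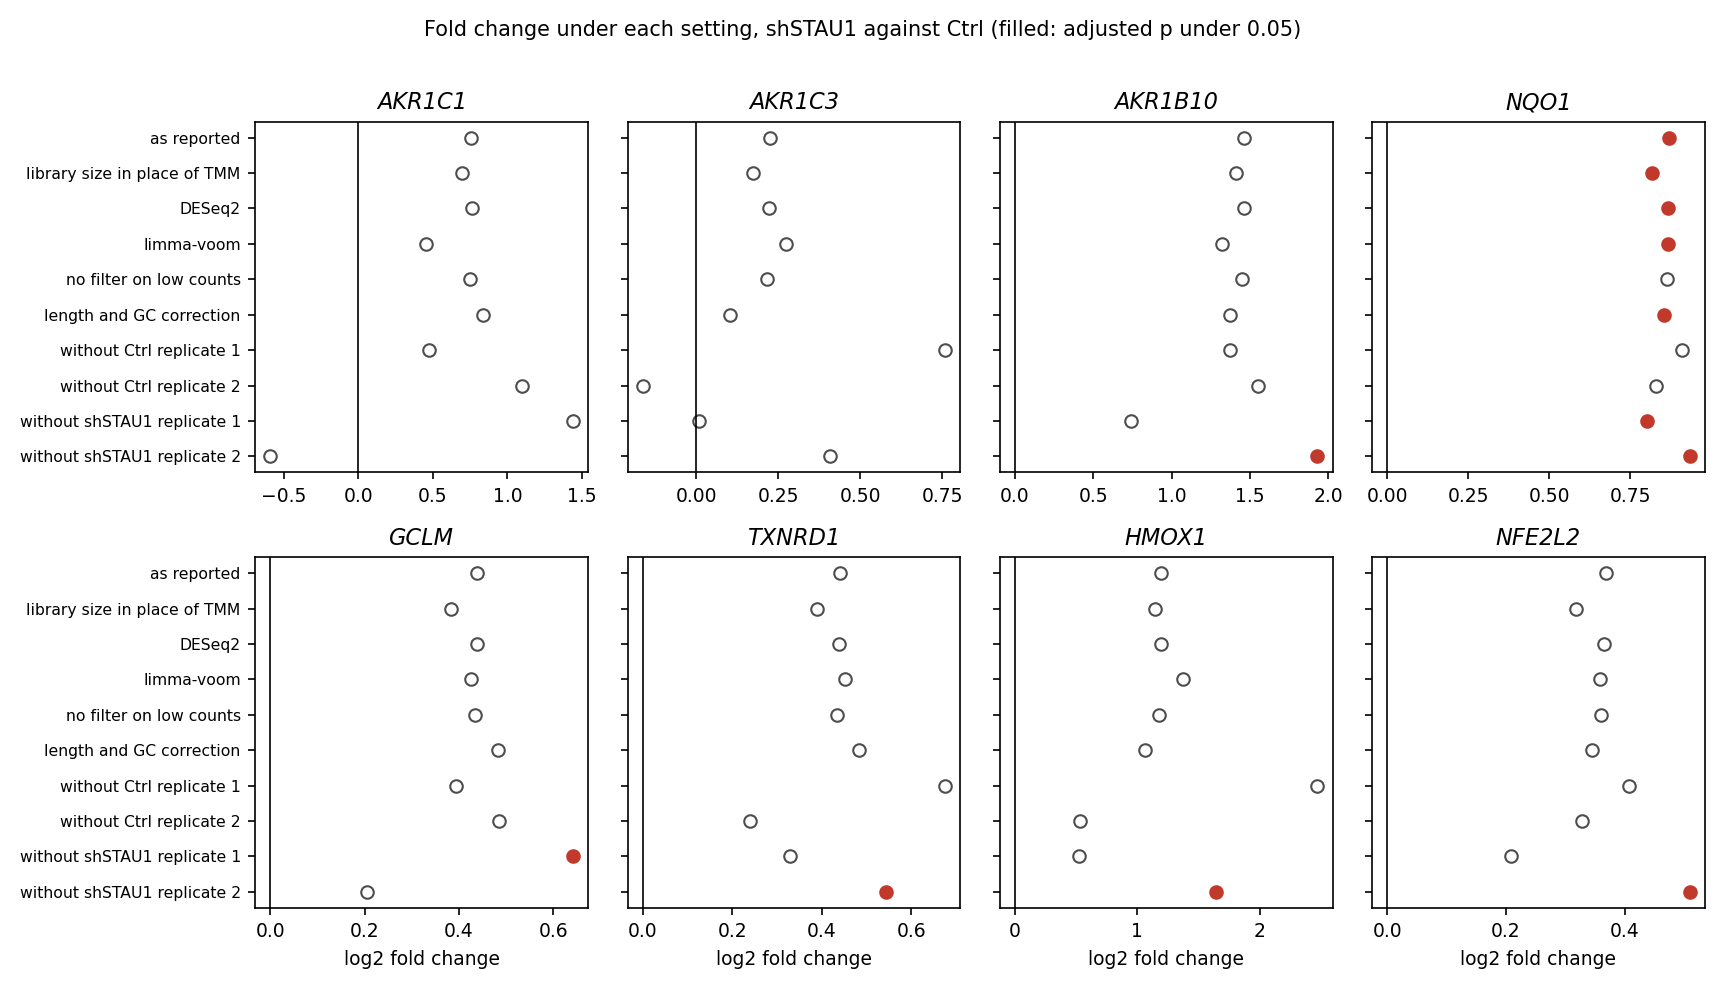
Log2 fold change (horizontal axes) of the 8 tested genes under the fit as reported and 9 other settings, with filled red points where the adjusted p was under 0.05. NQO1 stays between 0.80 and 0.93, while AKR1C1 reaches -0.59 and AKR1C3 -0.16 with 1 library left out.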

How the data were processed

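Gene counts of 4 RNA-sequencing libraries were analysed. The authors deposited raw whole-number counts for each gene. RNA was extracted with Trizol and libraries were made with a TruSeq RNA Exome kit. The submitters' processing notes name Partek and hg38, with no role. The aligner, counting program, strand setting and annotation release are not given in the sources used here. The growth protocol names SAS cells, and the libraries were treated as such.

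Within each group the 2 libraries were not one library deposited again, with a chi-square over its degrees of freedom of 23.4 in Ctrl and 56.4 in shSTAU1, so 4 samples were kept. Identifiers were matched to symbols by a name table, and 58561 of 67008 to GENCODE 29, which gave positions, exon lengths and GC content and may not be the authors' release. In R 4.3.3, edgeR 4.0.16 was run with filterByExpr, TMM and the quasi-likelihood test, without covariates. The study states no test for this experiment. With 2 libraries a group, an exact two-sided permutation test of 1 value cannot go below p = 0.333. Alternatives were DESeq2 1.42.0, limma-voom (limma 3.58.1), library size, no filter, the replicate number as a block, offsets for transcript length and GC content, other thresholds, summed paralogs and each library left out. The models were tested on simulated counts. Promoter sequences are from RefSeq.

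The 9 genes and all lists were chosen with earlier results of these data known. Named besides the 9 were genes past the threshold in each list, up to 10 a list, 6 regulators, 6 targets and the nearest genes by rule. Others, such as ABCC2, GSTM3, PRDX1, PGD, GSR, GPX4, AKR7A3, RBX1 and NFE2L3, were named after their values were seen. Of 20 other antioxidant enzymes listed, 19 were matched. One gene of the other NRF2 targets is counted in the list's totals, but its own values are not reported here.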

Additional observations from a re-analysis of the deposited data

How the results depend on the processing

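With 2 libraries a group, 1 library can decide a call, and counts of 7 to 115 limit AKR1C1, AKR1C3, AKR1B10 and HMOX1. NQO1 kept its direction in every fit run. Its adjusted p in edgeR's test missed the threshold without the filter (0.0988, log2 fold change 0.863). NQO1 was also not called without Ctrl replicate 1 or Ctrl replicate 2, at log2 fold changes of 0.911 and 0.83. In what follows the lists are given in the order of all genes (372 called as reported), the 9 genes (1), other NRF2 targets (4), regulators (0) and other antioxidant enzymes (1). DESeq2 called 1449, 1, 12, 1 and 3. Without the filter edgeR called 11, 0, 0, 0 and 0, with 3582, 5, 16, 2 and 5 at an unadjusted p under 0.05, over 24804 genes instead of 14303. With offsets for length and GC content edgeR called 202, 1, 2, 0 and 0, the last with 4 at an unadjusted p under 0.05, and the median log2 fold change of the regulators was -0.0376. Under library size scaling that median was -0.192. At an adjusted p under 0.10 edgeR called 1585 of all genes and 1 of the 9. The criterion of 1.5-fold and unadjusted p under 0.05 held for 2098 genes and for 2 of the 9, AKR1B10 and NQO1. For these changes the cause was not tested.

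With 1 library left out, edgeR called 0 to 2780 genes, 0 to 5 of the 9, 0 to 18 of the other targets, 0 to 5 regulators and 0 to 6 other enzymes. Without Ctrl replicate 1 these were 0 throughout, with 1502, 3, 10, 0 and 4 at an unadjusted p under 0.05. Without Ctrl replicate 2 they were 64, 0, 0, 0 and 0, with 1974, 3, 10, 2 and 2. Without shSTAU1 replicate 1 they were 2780, 2, 14, 5 and 6, and without shSTAU1 replicate 2 they were 2203, 5, 18, 0 and 3. The log2 fold change ran from -0.588 to 1.44 for AKR1C1 and from -0.164 to 0.759 for AKR1C3, each turned by 1 library. It ran from 0.741 to 1.93 for AKR1B10, from 0.802 to 0.934 for NQO1, from 0.204 to 0.642 for GCLM, from 0.24 to 0.676 for TXNRD1, from 0.525 to 2.47 for HMOX1 and from 0.209 to 0.509 for NFE2L2. For STAU1 it ran from -2.6 to -2.58, and without Ctrl replicate 1 it had an adjusted p of 0.49. The medians ran from 0.236 to 0.533 for the other targets and from -0.266 to -0.143 for the regulators.

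The labels do not say that a replicate number marks a shared batch. Deviations of same-numbered libraries from their group means had a correlation of 0.361 over all tested genes and 0.592 over 4830 abundant genes (log2 CPM over 5). Blocking on the replicate number, edgeR called 4087, 6, 17, 6 and 6 in the order above, of 14303, 8, 34, 12 and 16 tested. The log2 fold changes that then passed were 1.36 for AKR1B10, 0.425 for GCLM, 0.454 for TXNRD1, 1.33 for HMOX1 and 0.36 for NFE2L2, beside NQO1. With the block and the length and GC offsets together edgeR called 3247, 4, 16, 4 and 4, of the same numbers tested. The log2 fold changes were then 0.472 for GCLM, 0.496 for TXNRD1 and 0.336 for NFE2L2, with a regulator median of -0.0434.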
